A study of Mus musculus with 6 samples.

Results

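The 10 genes described here are transcriptional outputs of the RAS-RAF-MEK-ERK pathway, the MAP kinase cascade through which growth factor receptors drive proliferation. They were chosen by name from the deposited table, which lists 51912 genes, and all 10 were found in it. They comprise 2 dual-specificity phosphatases (Dusp4 and Dusp6), 3 Sprouty genes (Spry1, Spry2 and Spry4), 2 Sprouty-related genes (Spred1 and Spred2) and the 3 ETS transcription factors of the PEA3 group (Etv1, Etv4 and Etv5). RNA was sequenced from B16F10, a pigmented mouse melanoma cell line. The 3 libraries labelled A10KO, replicates 1, 13 and 14, have the genotype ANXA10-/-, a knockout of the gene for annexin A10, which belongs to a family of proteins that bind membranes in the presence of calcium. The 3 libraries labelled WT, replicates 1, 2 and 3, are wild type. How the knockout was made, and whether the replicate numbers stand for clones, cultures or repeated preparations, is not given in the sources used here, so p-values reflect the spread among these libraries, part or all of which may be technical.

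ERK signalling limits itself through the products of genes that it switches on. DUSP phosphatases remove phosphate from MAP kinases, while Sprouty and SPRED proteins act upstream of ERK, at receptor adaptors and at RAS and RAF. ETV1, ETV4 and ETV5 carry ERK and fibroblast growth factor signals to DNA as ETS factors, and the mRNA of these genes is widely used as a readout of ERK output, including in melanoma.

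No difference between A10KO and WT in these 10 genes passed the test across all genes. Etv5 came nearest, at 3.84 ± 0.54 TPM in A10KO and 1.66 ± 0.115 in WT (SD, n = 3 each), a ratio of the means of 2.31. TPM is a level per unit of transcript length, brought to a common total in each library, so levels can be compared between genes. The test was limma on log2(TPM + 1), over the 12068 genes that reached 1 TPM in 3 libraries or more, with Benjamini-Hochberg adjustment and a threshold of 0.05. Of the 10 genes, 9 met that filter and 0 of the 9 were called, where 0.0414% of all genes tested were called (5 genes). At an unadjusted p under 0.05 there was 1 of the 9, Etv5, against 8.83% of all genes tested. The number called among the members tested was 0 in each of 16 alternative fits. All 10 were tested only with no filter on low values. With a filter at 5 TPM only 5 were tested, and Etv5 was not among them.

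The 6 libraries had 11889 to 12236 genes at 1 TPM or more, and their depth is unknown because TPM keeps no record of it. The knocked-out gene gave no check of the labels, since Anxa10 was listed at 0 TPM in all 6 libraries, WT included. Melanocyte markers were present in both groups: the summed level of the 7 markers Tyr, Tyrp1, Dct, Mlana, Pmel, Mitf and Sox10 ran from 9410 to 11250 TPM in A10KO and from 8913 to 10020 in WT. Leukocyte, fibroblast and epithelial marker lists summed to at most 3.44 TPM in any library. Endothelial markers summed to between 0.69 and 6.47 TPM in A10KO and between 6 and 9.07 in WT, most of it Vwf, with Cdh5 at no more than 0.01. The mitochondrial genome supplied 7.93%, 14.7% and 7.37% of the TPM total in A10KO replicates 1, 13 and 14, against 6.32% to 6.56% in WT. Values in bulk RNA do not tell fewer cells that express a gene from less RNA per cell.

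The levels differed widely between the genes, and the phosphatases led. Averaged over the 6 libraries, Dusp4 stood first at 53.7 TPM and Dusp6 second at 26.6, followed by Spred2 (14.6), Spred1 (11.5), Spry2 (6.92), Etv4 (5.35), Etv5 (2.75), Etv1 (2.14), Spry1 (1.63) and Spry4 (0.695). Dusp4 was above Dusp6, and Dusp6 above Spred2, without overlap between any libraries. From Spred2 downward the ranges of neighbouring genes overlapped, except between Spred1 and Spry2. Among these overlapping neighbours the order was the same in every library only for Spry1 above Spry4. Etv5 was above Etv1 in 3 of 3 A10KO libraries and in 1 of 3 WT libraries. Etv1 was above Spry1 in 2 of 3 libraries of each group. Spred2 was above Spred1, Spry2 above Etv4 and Etv4 above Etv5 in 2 of 3 A10KO libraries and in 3 of 3 WT libraries. The plot of levels by library shows this order on a log axis.

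**Figure D1:**
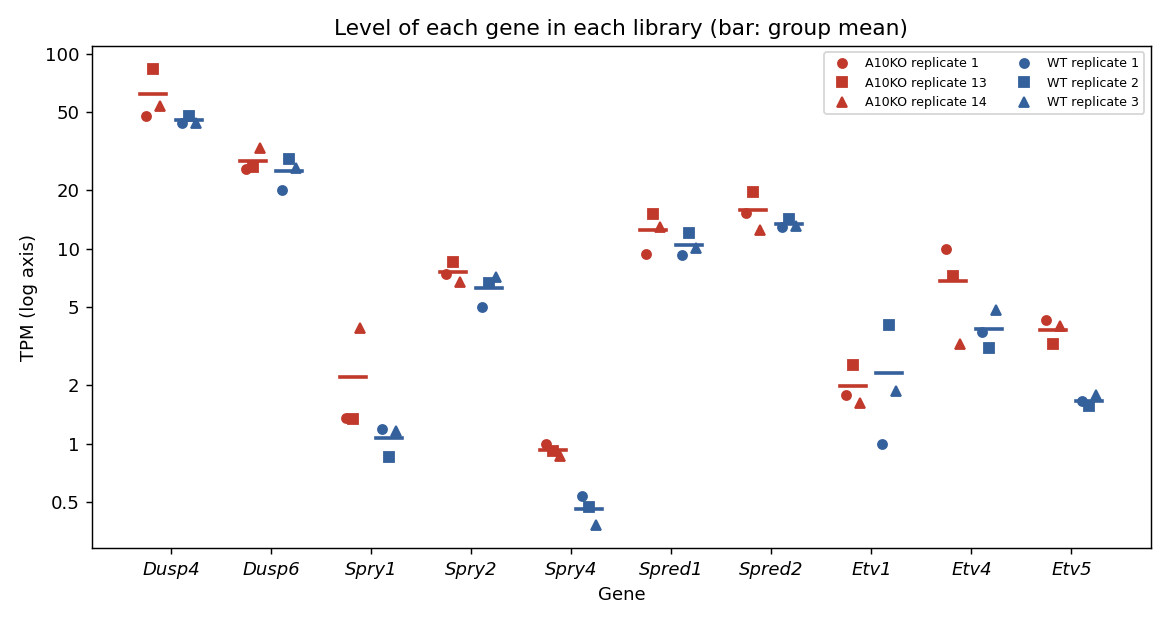
TPM of each of the 10 genes (log axis) in the 3 A10KO libraries (red) and the 3 WT libraries (blue); symbols mark libraries and bars group means. The groups separate for Etv5, Spry1 and Spry4 and overlap for Dusp4, Dusp6, Spry2, Spred1, Spred2, Etv1 and Etv4.

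Dusp4 (ENSMUSG00000031530, GRCm38 chromosome 8, 34807297 to 34819894, protein coding as are the other 9) encodes a nuclear MAP kinase phosphatase. It had 47.8, 83.8 and 54.3 TPM in A10KO replicates 1, 13 and 14, against 44.0, 48.1 and 44.4 in WT replicates 1, 2 and 3. A10KO replicate 13 was far above the other libraries, A10KO replicate 14 moderately above, and A10KO replicate 1 lay within the WT range. The log2 change was 0.40 (SE 0.21, 95% interval -0.09 to 0.88, limma adjusted p = 0.64), and 0.16 without A10KO replicate 13. Replicate 13 is the library with the largest mitochondrial share, and with mitochondrial transcripts removed and the rest rescaled the log2 change of Dusp4 was 0.45. Such rescaling raises all remaining genes of a library, most where that share is largest. The part of the mitochondrial share in the Dusp4 value was not tested.

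Dusp6 (ENSMUSG00000019960, chromosome 10, 99263231 to 99267489) encodes a cytoplasmic phosphatase selective for ERK. Its levels were 25.6, 26.1 and 32.9 TPM in A10KO and 19.9, 28.9 and 26.1 TPM in WT. A10KO replicate 14 was highest and WT replicate 1 lowest, with the rest intermingled. The log2 change was 0.18 (SE 0.18, interval -0.25 to 0.60, limma adjusted p = 0.80), so that the interval reached less than 1 log2 unit in either direction. It was 0.03 without WT replicate 1, 0.06 without A10KO replicate 14 and 0.29 without WT replicate 2.

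Among the Sprouty genes, which encode adaptors that restrain receptor signalling to RAS, Spry2 (ENSMUSG00000022114, chromosome 14, 105891947 to 105896819) was the most abundant. It had 7.38, 8.55 and 6.75 TPM in A10KO, against 5.04, 6.68 and 7.14 in WT. The groups overlapped, with only A10KO replicates 1 and 13 above the highest WT library, and the log2 change was 0.24 (interval -0.22 to 0.70, limma adjusted p = 0.77). It was 0.11 without WT replicate 1 or with library quality weights, and 0.16 without A10KO replicate 13. Spry1 (ENSMUSG00000037211, chromosome 3, 37639947 to 37644598) had 1.35, 1.33 and 3.91 TPM in A10KO and 1.19, 0.85 and 1.16 in WT. The groups did not overlap, but 1 library accounted for most of the difference: the log2 change of 0.54 (interval -0.23 to 1.31, limma adjusted p = 0.69) was 0.18 without A10KO replicate 14. A predicted transcript on the opposite strand, Gm42922, overlaps the start of Spry1 and reached at most 0.08 TPM.

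Spry4 (ENSMUSG00000024427, chromosome 18, 38586247 to 38601415) was the lowest of the 10 and missed the filter, because only A10KO replicate 1 reached 1 TPM. It had 1, 0.92 and 0.86 TPM in A10KO, against 0.54, 0.47 and 0.38 in WT. The A10KO libraries lay close together and above the WT libraries, and the mean was 2-fold higher in A10KO. In the fit with no filter on low values its log2 change was 0.40 (SE 0.11, interval 0.13 to 0.67, limma adjusted p = 0.59). Counting error at such low levels is unknown without depth, and the added 1 TPM compresses the log2 change.

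SPRED proteins bind neurofibromin, a RAS inactivator, and hold it at the membrane. Spred1 (ENSMUSG00000027351, chromosome 2, 117121374 to 117182279) had 9.39, 15.15 and 12.98 TPM in A10KO, against 9.32, 11.99 and 10.11 in WT. Spred2 (ENSMUSG00000045671, chromosome 11, 19924375 to 20024026) had 15.19, 19.65 and 12.4 TPM in A10KO, against 12.97, 14.12 and 13.15 in WT. Both were highest in A10KO replicate 13 and overlapped between the groups, with log2 changes of 0.22 (interval -0.27 to 0.71) and 0.19 (interval -0.25 to 0.64) and limma adjusted p of 0.79 for each. Without A10KO replicate 13 these were 0.08 for Spred1 and 0.03 for Spred2. In A10KO replicate 1 the genes of chromosome 2, which holds Spred1, had a median of -0.44 relative to the WT mean. This was taken over 784 genes averaging 5 TPM or more. That library's median over all genes tested, a wider set that also holds genes of lower level, was -0.12. Chromosome 12, which holds Etv1, had the same median of -0.44 in that library, over 345 genes. The part of these chromosome-wide differences in the Spred1 and Etv1 values was not tested.

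Among these gene families, the log2 changes of the PEA3 factors lay farthest apart. Etv5 (ENSMUSG00000013089, chromosome 16, 22381309 to 22439719) had 4.28, 3.24 and 4.01 TPM in A10KO, against 1.65, 1.55 and 1.78 in WT. The groups were far apart, the lowest A10KO library being above the highest WT library by more than the WT range. The log2 change was 0.86 (SE 0.20, interval 0.39 to 1.32, limma adjusted p = 0.30), number 122 of the 12068 genes tested when ordered by p. Leaving out 1 library at a time gave 0.79 to 0.95, and the adjusted p was between 0.16 and 0.94 over 15 alternatives. The median log2 change of the 269 genes on chromosome 16 averaging 5 TPM or more was 0.03, where that of all such genes was -0.05. Relative to the WT mean, the chromosome 16 median was -0.11, 0.18 and -0.005 in A10KO replicates 1, 13 and 14. The part of these differences in the Etv5 values was not tested.

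Etv4 (ENSMUSG00000017724, chromosome 11, 101769742 to 101785371) had 9.94, 7.25 and 3.26 TPM in A10KO, against 3.72, 3.09 and 4.85 in WT. A10KO replicates 1 and 13 were above the WT libraries, while A10KO replicate 14 lay inside their range. The log2 change was 0.59 (SE 0.36, interval -0.24 to 1.42, limma adjusted p = 0.68), 0.29 without A10KO replicate 1 and 0.97 without A10KO replicate 14. Etv1 (ENSMUSG00000004151, chromosome 12, 38779380 to 38870484) had 1.77, 2.53 and 1.61 TPM in A10KO, against 0.99, 4.06 and 1.87 in WT. The WT libraries of Etv1 spanned a 4.10-fold range that enclosed all 3 A10KO libraries. Its log2 change of -0.06 (interval -0.89 to 0.77, limma adjusted p = 0.97) was the only one below 0, and it turned to 0.30 without WT replicate 2, to 0.03 without A10KO replicate 14, to 0.02 under quantile normalization and to 0.03 with library quality weights.

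The summed level of the 3 PEA3 genes was 15.99, 13.02 and 8.88 TPM in A10KO, against 6.36, 8.70 and 8.50 in WT. Its make-up varied between libraries. Etv4 supplied 62.2%, 55.7% and 36.7% of that sum in A10KO, against 58.5%, 35.5% and 57.1% in WT. Etv5 supplied 26.8%, 24.9% and 45.2% in A10KO, against 25.9%, 17.8% and 20.9% in WT. The 3 genes encode a closely related DNA-binding domain. The submitters' notes name RSEM without its settings, so how reads shared between the 3 genes were divided cannot be checked here.

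The promoters of the 10 genes were searched for letters that ETS factors and other ERK-regulated factors bind, since the PEA3 factors are both outputs of the pathway and regulators of it. RefSeq promoter sequences of GRCm38.p6 were matched by symbol for 7 of the 10 genes, and the 250 bases before each annotated start were used. Shown are the stretches outside protein-coding exons for Etv5 at both of its RefSeq starts and for Spry1, the tested genes whose groups did not overlap, beside Dusp6, whose groups overlapped at a higher level. Of the 250 bases before the first Etv5 start, only the 101 farthest from it are shown. Capitals mark the ETS letters GGAAGT or their reverse complement.
Etv5 first start, chr16:22439720-22439820, minus strand: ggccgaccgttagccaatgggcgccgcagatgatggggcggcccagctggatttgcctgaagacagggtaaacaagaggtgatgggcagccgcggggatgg
Etv5 second start, chr16:22438369-22438618, minus strand: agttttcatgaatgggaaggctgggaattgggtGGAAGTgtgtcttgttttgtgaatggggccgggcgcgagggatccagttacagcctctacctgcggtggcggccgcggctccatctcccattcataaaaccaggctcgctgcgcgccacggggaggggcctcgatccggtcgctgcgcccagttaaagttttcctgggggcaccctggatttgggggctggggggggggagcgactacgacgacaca
Spry1, chr3:37639697-37639946, plus strand: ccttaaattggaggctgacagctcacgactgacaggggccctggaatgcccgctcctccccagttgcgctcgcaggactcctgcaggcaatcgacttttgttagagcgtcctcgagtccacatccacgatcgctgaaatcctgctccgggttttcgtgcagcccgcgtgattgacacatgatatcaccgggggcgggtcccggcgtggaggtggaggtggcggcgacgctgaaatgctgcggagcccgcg
Dusp6, chr10:99262981-99263230, plus strand: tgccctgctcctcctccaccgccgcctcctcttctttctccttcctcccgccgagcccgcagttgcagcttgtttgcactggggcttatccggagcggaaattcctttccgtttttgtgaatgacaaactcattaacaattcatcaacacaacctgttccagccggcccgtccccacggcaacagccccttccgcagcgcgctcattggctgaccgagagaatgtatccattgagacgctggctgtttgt
GGAAGT, searched on both strands, was present before the second start of Etv5, 217 to 212 bases upstream. It was also in the window of Spred2, 33 to 28 bases upstream. Windows were searched whole, exons included, and the Spred2 match fell past chr11:19924374, where the longest stretch outside protein-coding exons ended. In all, 2 of the 9 windows of the 7 genes held GGAAGT, where 19.7% of the 32851 windows of the same length over all genes did. The longer ETS letters CCGGAAGT, which contain GGAAGT, were in 0 of the 9 windows and in 2.88% of all windows. The letters TGACGTCA, bound by CREB-type factors, were in 0 of the 9 windows and in 1.55% of all windows. TGANTCA, searched with N as any base and so wider than the AP-1 site that it includes, was in 0 of the 9 and in 6.75%. A match or its lack describes these windows only.

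Taken as a list, 8 of the 9 tested genes had a log2 change above 0, where 43.5% of all genes tested did, and their median log2 change was 0.24, where that of all genes tested was -0.04. The median of the 9 lay between 0.16 and 0.32 when each library in turn was left out. All A10KO libraries were above all WT libraries for 2 of the 9, Spry1 and Etv5, where this held for 5.61% of all genes tested. The genes were chosen with earlier results of these data known, so these counts describe the list and are not a test of it. The intervals of 8 of the 9 genes included 0, that of Etv5 being the exception, and they are not adjusted for the number of genes.

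**Figure D2:**
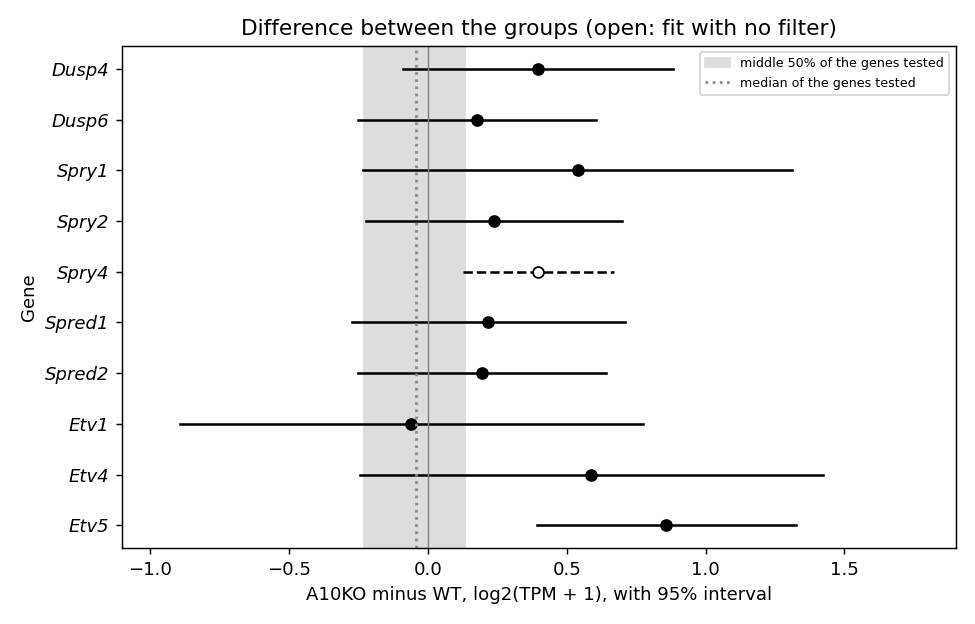
Log2 change between A10KO and WT for each gene on the log2(TPM + 1) scale, with 95% intervals from limma that are not adjusted for the number of genes; the grey band holds the middle 50% of the 12068 genes tested and the dotted line their median of -0.04. Etv5 has the highest value (0.86), and Spry4, drawn open, comes from the fit with no filter.

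The 3 A10KO libraries did not carry the same pattern. Relative to the WT mean, the median over the 9 tested genes was 0.17, 0.50 and 0.25 on the log2 scale in A10KO replicates 1, 13 and 14, against -0.05, 0.08 and 0.06 in WT replicates 1, 2 and 3. The same medians over all genes tested were -0.12, 0.02 and -0.03 in A10KO. Replicate 13 was the highest A10KO library for 5 of the 10 genes (Dusp4, Spry2, Spred1, Spred2 and Etv1), replicate 1 for 3 (Spry4, Etv4 and Etv5) and replicate 14 for 2 (Dusp6 and Spry1). Differences from the WT mean of more than 0.85 were found for Dusp4 in replicate 13 (0.87), for Spry1 in replicate 14 (1.25), for Etv4 in replicate 1 (1.18) and for Etv5 in replicates 1 and 14 (0.99 and 0.91). In WT, replicate 1 was the lowest of the 6 libraries for 5 of the 10 genes.

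**Figure D3:**
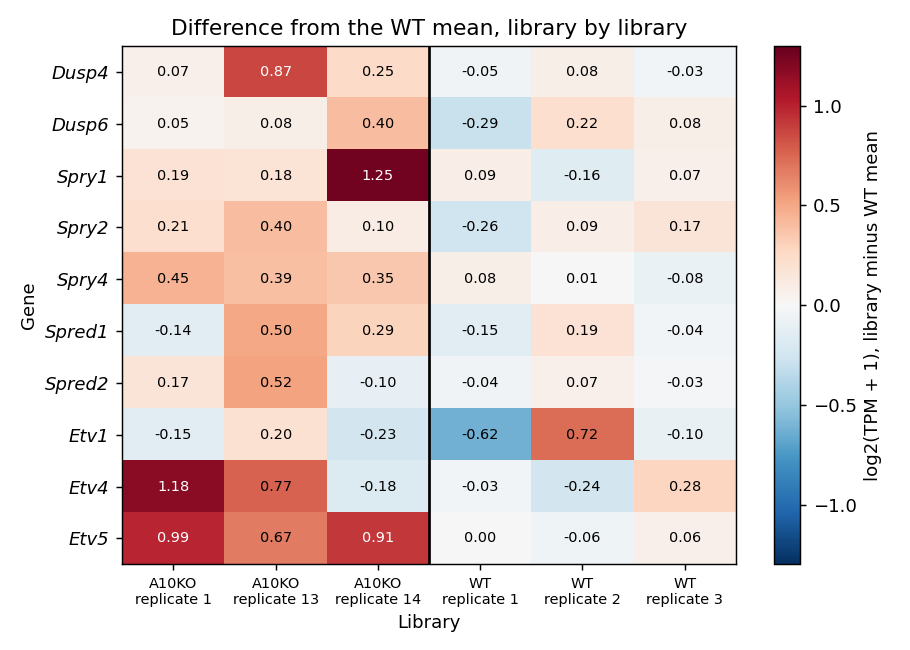
Difference of each library from the WT mean on the log2(TPM + 1) scale for each of the 10 genes, A10KO libraries to the left of the line and WT libraries to the right. Etv5 and Spry4 are above the WT mean by similar amounts in the 3 A10KO libraries (0.67 to 0.99 and 0.35 to 0.45), whereas the largest values of Dusp4, Spry1 and Etv4 come from different libraries.

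The pathway around these genes was examined through 7 further lists, and 0 of their 83 tested members were called by limma over all genes. Over the 26 genes of the RAS-ERK cascade itself the median log2 change was 0.01, 14 above and 12 below 0. In that list Map2k2, the kinase MEK2, stood at 207 ± 62.7 TPM in A10KO and 188 ± 19.9 in WT, and Mapk3, the kinase ERK1, at 106 ± 18.9 and 130 ± 12.2. Of the other ETS factors 12 were tested, with a median of -0.01, led by Ets1 at 63.2 ± 17.3 TPM in A10KO and 61.4 ± 7.66 in WT and by Erf, a repressor that ERK inactivates, at 38.9 ± 3.89 and 47.6 ± 4.85.

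Output genes outside the 10 were more often lower than higher in A10KO, and 0 of these output genes passed the test. Of all genes tested, only 43.5% had a log2 change above 0. The output lists were also chosen with earlier results of these data known, so their counts describe the lists and are not a test. Immediate early genes, which ERK and stress kinases induce within minutes, had a median log2 change of -0.49, with 8 of 10 tested members below 0 and 4 of 10 below 0 at an unadjusted p under 0.05, against 6.27% of all genes tested. That median was -0.30 without A10KO replicate 13 and -0.19 over 14 members with no filter, and 7 of 10 members were below 0 under the 4 alternative scalings. Ier3 stood at 63.9 ± 34.7 TPM in A10KO and 84.4 ± 32.0 in WT, and Myc at 32.6 ± 11.1 and 31.0 ± 4.85. Of 8 other output genes tested, 6 were below 0, with a median of -0.22. Phlda1, a commonly used marker of ERK output, stood at 131 ± 7.73 TPM in A10KO and 160 ± 7.37 in WT (log2 change -0.29, limma adjusted p = 0.52), and Ccnd1, which encodes cyclin D1, at 67.1 ± 18.9 and 74.9 ± 1.62.

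A further list of dual-specificity phosphatase (DUSP) genes, which does not hold Dusp5, Dusp7 or Dusp9, differed in sign from Dusp4 and Dusp6, with 0 members past the test. All 8 tested members of that list had a log2 change below 0, with a median of -0.65. Of all genes tested, 43.5% were above 0. All A10KO libraries were below all WT libraries for 3 of the 8, against 11.5% of all genes tested. The list was chosen with earlier results of these data known, so these counts describe it and are not a test. Of the genes it leaves out, Dusp9 had a log2 change of 1.48 and Dusp7 of -0.11, while Dusp5 missed the filter. Dusp2, chosen after its values were seen, is counted although A10KO replicate 1 had 3.93 TPM, above every WT library. A10KO replicates 13 and 14 had 0.12 and 0.79 TPM, against 2.5, 2.08 and 3.06 in WT. All 8 stayed below 0 under the 4 alternative scalings, 7 did without any one of the A10KO libraries, and with a filter at 5 TPM the median was -0.18 over the 4 left. The most abundant, Dusp3 and Dusp22, stood at 30.7 ± 10.2 and 17.1 ± 4.59 TPM in A10KO, against 34.2 ± 2.05 and 18.8 ± 2.14 in WT. The lowest log2 change was that of Dusp10, a phosphatase of the stress kinases JNK and p38, chosen after its values were seen. It had 1.41, 1.20 and 2.04 TPM in A10KO, against 3.99, 7.83 and 4.88 in WT (log2 change -1.34, SE 0.27, limma adjusted p = 0.23). Dusp8 and Dusp16, which act on the same kinases and were also chosen after their values were seen, had 2.37 ± 0.452 and 9.98 ± 1.77 TPM in A10KO, against 4.96 ± 1.35 and 15.4 ± 1.08 in WT.

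Among 8 tested members of the list of other feedback genes the median log2 change was 0.11. Of these 8, 5 were above 0, where 43.5% of all genes tested were. The RAS inactivators Nf1 and Rasa1 stood at 18.8 ± 3.93 and 18.6 ± 1.12 TPM in A10KO, against 17.0 ± 4.59 and 17.2 ± 3.03 in WT. Dusp9, an ERK-directed phosphatase chosen after its values were seen, had 6.69, 3.12 and 3.32 TPM in A10KO, against 0.88, 0.75 and 0.90 in WT, a ratio of the means of 5.19 (log2 change 1.48, SE 0.29, limma adjusted p = 0.21). The groups of Dusp9 did not overlap. It met the filter only through the A10KO libraries, and so could enter the test only by differing. Spred3, the third SPRED gene, likewise chosen after its values were seen, had 2.41 ± 0.0252 TPM in A10KO and 3.56 ± 0.925 in WT.

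**Figure D4:**
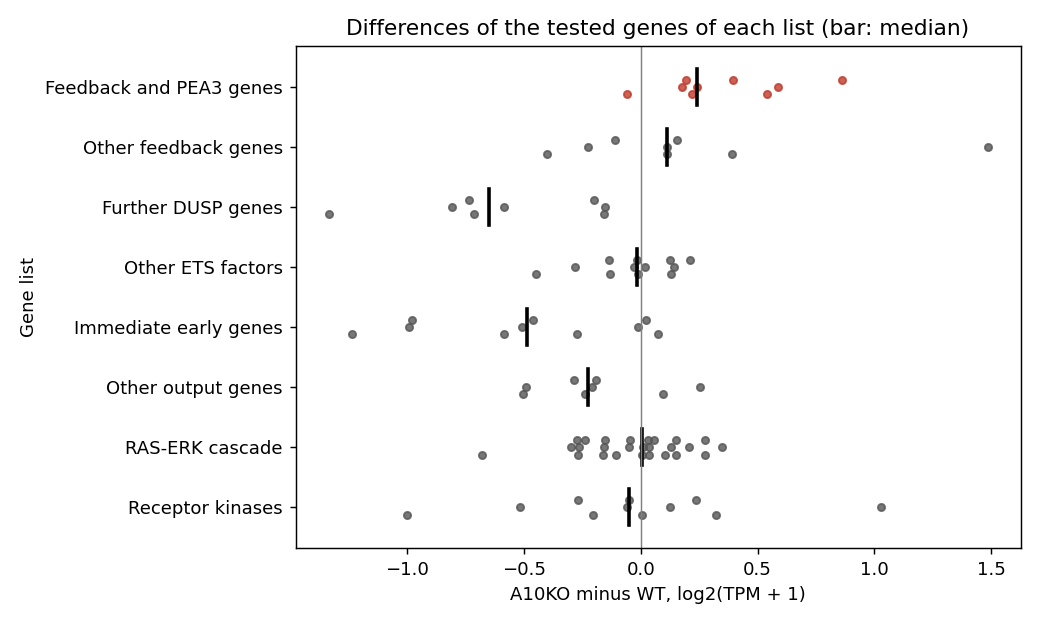
Log2 change between A10KO and WT of each tested gene (points) in the list of feedback and PEA3 genes (red) and in 7 other lists of the pathway (grey), with list medians as bars. Medians are 0.24 for the feedback and PEA3 genes, -0.65 for the further DUSP genes, a list that does not hold Dusp5, Dusp7 or Dusp9, and -0.49 for the immediate early genes, and 0 genes shown passed the adjusted threshold.

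Genes whose levels followed the 10 most closely across libraries were sought with the average of the standardized log2 levels of the 9 tested genes, over the 6 libraries. Of 9406 other genes averaging 5 TPM or more, the highest Pearson r were those of Gm28036 (0.98), Tbce, a tubulin folding cofactor (0.98), Ythdc1, a reader of methylated RNA (0.98), Fzd6, a Wnt receptor (0.97), and Galnt12, a glycosyltransferase (0.97). Tbce had 17.9, 21.8 and 18.2 TPM in A10KO, against 12.9, 17.2 and 14.2 in WT, highest in replicate 13 and lowest in WT replicate 1, as the average itself was. Among the 9 genes, r with the average ranged from 0.32 for Spry1 to 0.90 for Spry2. Each value rests on 6 libraries in 2 groups, and 12 of the 9406 genes exceeded 0.95. With so few libraries, unrelated genes can also reach a high r among so many compared. Whether 12 is more than that was not tested.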

How the data were processed

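RNA sequencing values from 3 A10KO and 3 WT libraries of B16F10 were analysed. The labels' protocols name Trizol extraction with DNase I and standard Illumina libraries. GRCm38.p5, fastp, HISAT and RSEM appear in the submitters' processing notes; versions, settings, annotation and strand handling were not given in the sources used here. The deposited values were read as TPM in spite of the word counts in the series table's name. They have decimals, sum to 969834 to 985045 per library, and their lowest values are smaller for long transcripts (first percentile of non-zero values 0.06 to 0.08 under 1000 bases and 0.01 over 5000). The 6 sample tables equalled the series table. Depth and counting error are unknown.

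limma 3.58.1 in R 4.3.3 was run with a mean-variance trend and no covariates on log2(TPM + 1), for genes reaching 1 TPM in 3 libraries or more, and was tested on simulated data. The fit was repeated with other pseudocounts, filters, scalings, weights and variance models and without each library. Loci come from GENCODE M21 (GRCm38), matched by identifier. The members and lists were chosen with earlier results of these data known. Named outside the 10 genes were the 2 with the highest mean TPM in each list, any called, and 5 by likeness. Dusp5 and Dusp7 were named because the further DUSP list does not hold them. Other genes of the pathway lists are marked as chosen after their values were seen. Figures used Python 3.11.15 and matplotlib 3.10.9.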

Additional observations from a re-analysis of the deposited data

How the results depend on the processing

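The count of called feedback and PEA3 genes was 0 in each of 16 alternatives, and 0 of the single-gene adjusted p-values passed the threshold. The number of these genes tested was 5 with a filter at 5 TPM and 10 with no filter. Their median log2 change lay between 0.22 and 0.32 under other pseudocounts, filters, scalings, weights and variance models, and between 0.16 and 0.32 without each library. With no filter it was 0.32 over all 10 genes. The median over all genes tested moved between -0.08 and 0.01.

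Over all genes the count of called genes depended on the libraries. It was 5 as reported, 3 under quantile normalization and 25 with library quality weights, which gave A10KO replicate 13 the lowest weight (0.218) and WT replicate 3 the highest (6.98). Without each library in turn it ran from 1 (without WT replicate 1, and without WT replicate 2) to 20 (without A10KO replicate 13). The cause was not tested.

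The direction held in each alternative run for 8 of the 9 tested genes. Etv1 turned to 0.0203 under quantile normalization and 0.0265 with library quality weights, and ran from -0.37 to 0.30 without each library. Etv4, at 0.59 as reported, was 0.13 with library quality weights. Spry4, which was tested only with no filter, ran from 0.36 to 0.87 when that fit was combined with the other alternatives, a form chosen after seeing the data, with an adjusted p between 0.31 and 0.93. No paired analysis was possible because A10KO and WT share only 1 replicate number.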

Other observations

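Several receptor tyrosine kinase genes, whose products feed the ERK pathway, differed widely between libraries of the same group. Of 20 on the list, 11 were tested and 0 were called by limma, 1 being past an unadjusted p under 0.05, where 8.83% of all genes tested were. Fgfr2, a fibroblast growth factor receptor gene, had 26.8, 56.4 and 18.2 TPM in A10KO replicates 1, 13 and 14, against 118, 87.1 and 1.25 in WT replicates 1, 2 and 3. WT replicate 3 was thus the lowest of the 6 libraries and WT replicate 1 the highest. Mertk, a receptor kinase of the TAM family, had 9.96, 62.2 and 77.3 TPM in A10KO, against 68.4, 84.3 and 72.3 in WT, with A10KO replicate 1 apart from the rest. Ntrk2, a neurotrophin receptor gene chosen after its values were seen, had 23.1 TPM in A10KO replicate 14 and was listed at 0 in the other 5 libraries. Fgfr3, also chosen after its values were seen, had 4.72, 12.4 and 8.46 TPM in A10KO, against 3.24, 3.36 and 3.62 in WT (log2 change 1.03, SE 0.31, limma adjusted p = 0.43), and its groups did not overlap.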
